A study of Rattus norvegicus with 24 samples.

Results

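The D-type cyclins, their kinase partners and the inhibitors of those kinases were followed in the lungs of rats that had inhaled cigarette smoke, mineral dust, both or neither. The genes were taken by symbol from the array's annotation: Ccnd1, Ccnd2 and Ccnd3, the kinases Cdk4 and Cdk6, and the inhibitors Cdkn1a, Cdkn1b, Cdkn2b and Cdkn2c. All 9 were annotated, out of 14217 genes with a probe set of their own, and 14 probe sets carried them. The set was selected on measured values, because Ccnd2 stood low with Iraqi sand and high with silica in rats that had no smoke; Ccnd2 was therefore tested only among the smoke groups, and its other values are given as a description.

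The right caudal lung lobe of 24 adult male Sprague-Dawley rats, labelled as 17 weeks old, was measured on 1 array each, with 4 rats in each of 6 groups. The groups had smoke and Iraqi sand, smoke and silica (a manufactured silica sand), smoke without particles, Iraqi sand without smoke, silica without smoke, or air by both routes. Smoke was given nose-only at 0.48 mg/L for 3 h a day on 5 days a week, for 5 weeks by the treatment labels and 6 weeks by the series text, and rats without smoke had air nose-only in its place. Particles were given whole-body at 1 mg per cubic metre for 18 h a day (18 to 19 h by the series text), 7 days a week, for 2 weeks, and rats without particles had air. The series text describes 102 rats, 17 per group, aged 10 to 15 weeks at the outset. Levels are log2 values, so a difference of 1 is a doubling, and a level of one gene is not set against that of another, since probe sets differ in brightness. In whole lobe RNA, fewer cells of a type and less RNA per cell cannot be told apart.

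D-type cyclins are made when a cell receives growth signals, and they bind and activate Cdk4 and Cdk6. The active kinases phosphorylate the retinoblastoma protein, which releases E2F factors and lets the cell pass from G1 into S phase. The INK4 inhibitors, to which Cdkn2b and Cdkn2c belong, bind Cdk4 and Cdk6 directly, while Cdkn1a and Cdkn1b of the CIP/KIP family bind cyclin and kinase complexes. Cdkn2b is a known target of TGF-beta signalling, and Cdkn1a of p53. In the resting adult lung most cells are out of cycle.

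The mean of 8 alveolar type 2 cell markers, which define lung tissue, ran from 13.38 to 13.51 over the 12 rats with smoke, against 13.15 to 13.62 over the 12 rats without smoke. By other markers some rats stood apart, 5 of them by over 1 on the log2 scale from all their mates in the mean of a list. Rat 302 (Iraqi sand) had a mean of 9.03 over 9 heart muscle markers, against 5.62 to 5.94 in its group mates, and a mean of 10.26 over 9 airway secretory markers, against 8.32 to 8.52. Rat 104 (air) was high in the same lists, at 9.31 and 9.93, against 5.97 to 6.47 and 8.42 to 8.69 in its mates. Rat 302 was also high in the mean of the B cell markers, at 8.85, against 7.67 to 7.73 in its mates. Rat 604 (smoke and silica) had a mean of 8.29 over 15 mitotic genes, against 6.90 to 7.27 in its mates. Rat 201 (smoke) had a mean of 10.65 over 8 neutrophil markers, against 8.60 to 9.06 in its mates, and rat 605 (smoke and silica) a mean of 8.42 over the airway secretory markers, against 9.51 to 10.46. The labels name no batch.

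Of the 8 genes tested for smoke, Cdkn2b alone passed the threshold, in the smoke contrast averaged over the 3 particle conditions. The 250 bases upstream of its start are shown for that reason, and those of Cdkn2c beside them as the other INK4 gene, which did not pass. Both come from RefSeq on the GRCr8 build, minus strand, written 5′ to 3′, with matches to the GC box (GGGCGG, either strand) in capitals. RefSeq's promoter table held 6 of the 9 genes. The stretches lie at chr5:109134856-109135105 for Cdkn2b and chr5:129644892-129645141 for Cdkn2c.

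Cdkn2b: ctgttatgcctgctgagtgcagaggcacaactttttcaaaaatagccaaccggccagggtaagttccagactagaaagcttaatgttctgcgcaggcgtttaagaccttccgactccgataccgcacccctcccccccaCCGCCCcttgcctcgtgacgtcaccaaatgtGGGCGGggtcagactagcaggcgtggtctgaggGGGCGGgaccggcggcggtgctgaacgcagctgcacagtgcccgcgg

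Cdkn2c: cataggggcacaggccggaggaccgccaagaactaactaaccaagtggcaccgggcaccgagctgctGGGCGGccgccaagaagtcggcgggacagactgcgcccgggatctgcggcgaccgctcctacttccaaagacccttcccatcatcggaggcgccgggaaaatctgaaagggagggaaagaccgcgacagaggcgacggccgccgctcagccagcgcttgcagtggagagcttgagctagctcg

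The Cdkn2b stretch held 3 GC boxes and 3 matches to CAGAC, the letters of a SMAD element, where the Cdkn2c stretch held 1 of each. Among 33469 rat promoters cut to the same 250 bases, 30.5% held a GC box on either strand, 42.9% held CAGAC and 5.59% held the E-box CACGTG, which neither stretch held. These are shares of promoters with at least 1 match, so they do not tell how common 3 matches are. The Cdk4 stretch held 3 E-boxes, and those of Ccnd3, Cdkn1a and Cdkn1b none. In the 2 stretches printed no match overlapped another, and a match describes these letters only.

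Ccnd2, the D-type cyclin that varied most among the 9, stood highest with silica without smoke and lowest with Iraqi sand without smoke. Its levels were 9.05, 9.15, 8.88 and 8.34 with Iraqi sand without smoke. They were 11.01, 10.65, 11.00 and 11.00 with silica without smoke, against 9.52, 10.12, 9.68 and 9.40 in air. All 4 Iraqi sand rats lay below, and all 4 silica rats above, every air rat. These are the values that led to the choice of Ccnd2: means of 8.86 ± 0.36 with Iraqi sand, 10.91 ± 0.18 with silica and 9.68 ± 0.31 in air (SD, n = 4 each). The difference of means on the log2 scale was -0.83 ± 0.19 for Iraqi sand minus air (SE) and 1.23 ± 0.19 for silica minus air, which is 1.77-fold lower and 2.35-fold higher. Iraqi sand lay 2.06 ± 0.19 below silica, 4.17-fold. In these 3 contrasts 0.0281%, 0.141% and 0.274% of all genes passed the threshold, and nothing is read from that here.

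**Figure D1:**
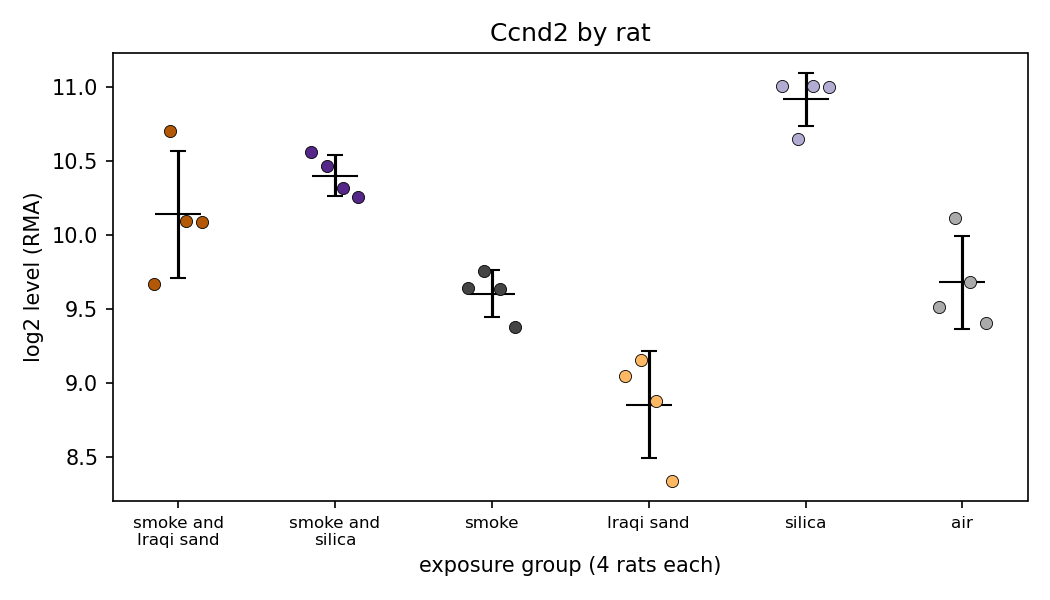
Ccnd2 level (log2) in each of the 24 rats by exposure group; points are rats, the long bar is the group mean and the whiskers are 1 SD (n = 4). Without smoke the silica rats lie at 10.65 to 11.01 and the Iraqi sand rats at 8.34 to 9.15, on either side of the air rats, while with smoke both particle groups have means above the smoke group.

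Among rats that had smoke, the Iraqi sand group did not lie low. Ccnd2 was 9.67, 10.70, 10.10 and 10.09 with smoke and Iraqi sand. It was 10.56, 10.47, 10.32 and 10.26 with smoke and silica, against 9.64, 9.76, 9.64 and 9.38 with smoke. Every smoke and silica rat lay above every smoke rat, whereas 1 of the smoke and Iraqi sand rats lay within the range of the smoke rats.

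The difference of smoke and silica from smoke was 0.80 ± 0.19 on the log2 scale (SE; 95% interval 0.40 to 1.19), or 1.74-fold. It did not pass the adjustment over all genes: limma gave an adjusted p of 0.200, with 0.0141% of all genes called in this comparison. The range of its adjusted p over the alternatives tried was 0.0254 to 0.840. It passed when the fit held only the 8 arrays of the 2 groups (adjusted p = 0.0462) and when arrays were weighted by quality (adjusted p = 0.0254), a setting that raised the calls of this contrast to 342 genes, against 2. Smoke and Iraqi sand lay 0.53 ± 0.19 above smoke (95% interval 0.14 to 0.93), with an adjusted p of 1.00 from limma, and 0.0141% of all genes were called there. Without rat 404, at 10.70, this difference was 0.35. Smoke and Iraqi sand minus smoke and silica was -0.26 ± 0.19 (95% interval -0.66 to 0.13, adjusted p = 0.839), where 0% of genes passed in limma and 989 had an unadjusted p under 0.05. It was -0.11 without rat 402 and -0.45 without rat 404.

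None of the 84 measured markers of the 12 cell type lists passed in limma for smoke and silica or for smoke and Iraqi sand against smoke, where 5 and 4 had an unadjusted p under 0.05. These were 5.95% and 4.76%, against 8.29% and 3.83% of all genes. In each contrast only 0.0141% of all genes were called, so the absence of called markers does not show that the cell types were unchanged. The B cell markers, 4 of them measured, had mean levels of 7.11 to 7.66 with smoke and silica, against 7.33 to 7.67 with smoke. Of the 12 lists, only endothelium had means that did not overlap between these groups. They were 11.12 to 11.45 with smoke and silica, against 11.49 to 11.62 with smoke. Macrophage means ran from 11.10 to 11.73 with smoke and silica, against 10.82 to 11.28 with smoke. Mitotic markers ran from 6.90 to 8.29 with smoke and silica, against 6.75 to 7.53 with smoke. The part of these markers in the Ccnd2 difference was not tested. Without rats 302, 104 and 604 the Ccnd2 difference of smoke and silica from smoke was 0.82 (adjusted p = 0.107), and without rat 201 it was 0.81 (adjusted p = 0.370).

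Set between smoke and no smoke, Ccnd2 was 1.28 ± 0.19 higher with smoke and Iraqi sand than with Iraqi sand, and 0.51 ± 0.19 lower with smoke and silica than with silica. Neither pair of groups overlapped. Smoke without particles differed from air by -0.08 ± 0.19, with overlap. These contrasts use the groups on which Ccnd2 was chosen and have no test. From high to low the group means ran silica, smoke and silica, smoke and Iraqi sand, air, smoke, Iraqi sand. As neighbours in that order, silica did not overlap with smoke and silica, nor smoke with Iraqi sand, while the other neighbours overlapped. The group means spanned 2.06, which is the difference of silica from Iraqi sand without smoke on which Ccnd2 was chosen, and the next widest span of the 9 was that of Cdkn2b at 0.57.

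The 5 genes whose levels followed Ccnd2 most closely over the 24 rats were Nkap, Bbx, Klf13, Prkaa2 and Gsk3b. Pearson's r with Ccnd2 was 0.87 for Nkap, a nuclear protein named for NF-kappaB activation, 0.86 for Bbx, an HMG-box transcription factor, and 0.85 for Klf13, a Krüppel-like transcription factor. It was 0.84 for Prkaa2, a catalytic subunit of AMP-activated protein kinase, and 0.83 for Gsk3b, glycogen synthase kinase 3 beta. Spearman's rho was 0.94 for Prkaa2 and 0.81 to 0.85 for the others. Without the 2 rats farthest from the Ccnd2 median (rats 305 and 501) r was 0.78 to 0.82.

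Within groups r was lower, 0.52 for Nkap and 0.27 to 0.44 for the others. The rats share exposure groups, each rat's genes were read on 1 array, and the 5 were picked as the highest of all genes, so these r are a description. Without rat 302, r for Prkaa2 was 0.94. All 5 had their lowest group mean with Iraqi sand without smoke, 7.16 for Klf13 against 7.50 in air and 7.71 for Prkaa2 against 8.41 in air. The highest group mean was with silica for Nkap, Bbx, Klf13 and Prkaa2, and with smoke and silica for Gsk3b (8.01, against 7.99 with silica). Because the 5 were picked for following Ccnd2, this likeness of group means largely comes with the pick and is a description too.

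**Figure D2:**
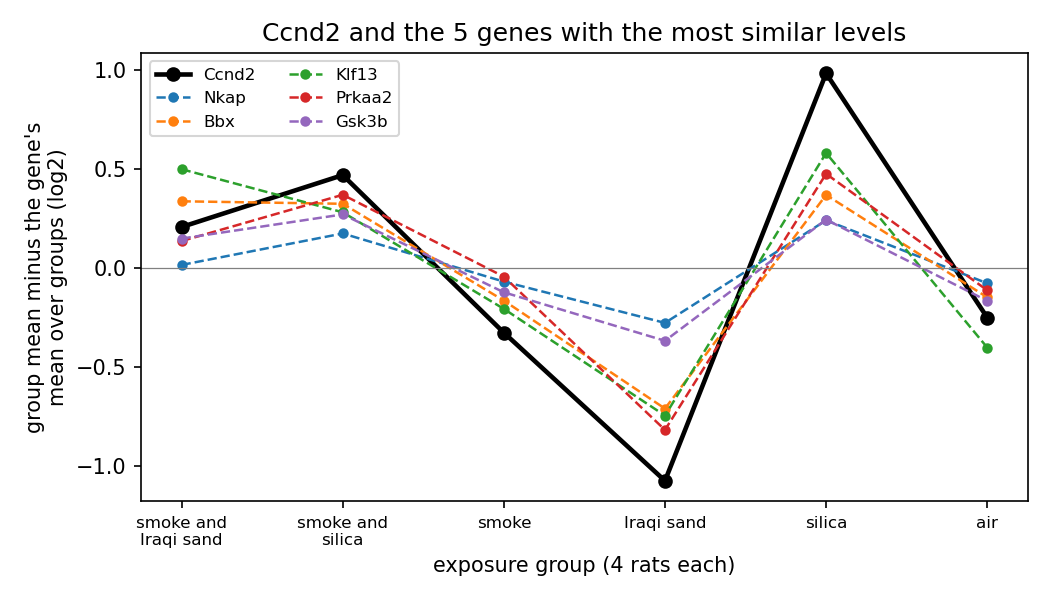
Group means (log2) of Ccnd2 and of the 5 genes with the highest Pearson correlation with it, each minus that gene's mean over the 6 groups; the lines only join the points of a gene. All 6 genes are lowest with Iraqi sand without smoke, which for the 5 largely comes with picking them for following Ccnd2. Ccnd2 has the widest span, 2.06.

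Ccnd1, the cyclin most often linked to growth factor signals in epithelium, showed no difference past the threshold. Its levels ran from 11.42 to 12.04 over the 12 rats with smoke (median 11.68), against 11.29 to 12.11 over the 12 rats without smoke (median 11.73), so they overlapped almost wholly. The smoke difference averaged over the 3 particle conditions was -0.04 ± 0.07 (SE; 95% interval -0.20 to 0.11, adjusted p = 0.760 in limma). It was larger by the 2 other probe sets, -0.13 ± 0.07 and -0.13 ± 0.08, but did not pass (adjusted p = 0.222 and 0.314). Without smoke the group means of Ccnd1 were 11.55 ± 0.22 with Iraqi sand and 11.89 ± 0.19 with silica, against 11.77 ± 0.11 in air (SD, n = 4 each), on the same sides of air as those of Ccnd2. Both groups overlapped with air. Of its other 2 probe sets, the dimmer had group means of 10.31 with Iraqi sand and 10.63 with silica, against 10.46 in air, while the brighter had 11.25 and 11.17, against 11.30 in air, so the 3 probe sets did not share 1 order.

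Ccnd3, the D-type cyclin known best from lymphocytes, had lower means in every smoke group than in the matching group without smoke. Its levels were 9.96, 10.00, 10.03 and 10.30 with smoke and Iraqi sand, against 10.22, 10.69, 10.15 and 10.09 with Iraqi sand. They were 9.96, 9.91, 10.00 and 10.12 with smoke and silica, against 10.12, 10.25, 10.11 and 10.19 with silica. They were 10.30, 10.12, 10.22 and 10.16 with smoke, against 10.29, 10.31, 10.30 and 10.15 in air. The groups of each pair overlapped.

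The averaged smoke difference of Ccnd3 was -0.15 ± 0.06 (95% interval -0.27 to -0.03), with an adjusted p of 0.122. Smoke and silica lay 0.27 ± 0.10 below air (adjusted p = 0.155), and 0.20 ± 0.10 below smoke (adjusted p = 0.620), with no overlap in either, though the highest smoke and silica rat and the lowest smoke rat were both at 10.12. Rat 302, at 10.69, was the highest of all for Ccnd3, and although it is in neither group it enters the shared spread: without it the adjusted p for smoke and silica against air was 0.0164, on the same difference. Leaving out rat 302 also shrank the averaged smoke difference to -0.10. The smoke difference with Iraqi sand then went from -0.21 to -0.08. T cell markers fell with smoke in these lungs: 7 of 9 passed in the averaged contrast, where 6.39% of all genes did. Their mean ran from 6.97 to 8.10 over the 12 rats with smoke, against 7.76 to 8.80 over the 12 rats without smoke. The 8.80 was that of rat 302, whose group mates had 7.76 to 8.15. The part of the T cell markers in the Ccnd3 values was not tested.

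Cdk4, the partner kinase shared by the 3 cyclins, was the steadiest of the 9 between rats of a group. It ran from 10.47 to 10.73 over the 12 rats with smoke (median 10.58), against 10.50 to 10.99 over the 12 rats without smoke (median 10.58), rat 302 being the highest. The averaged smoke difference was -0.03 ± 0.04 (95% interval -0.12 to 0.06, adjusted p = 0.662). With Iraqi sand, rats with smoke lay 0.17 ± 0.07 below their counterparts (adjusted p = 0.213), and the interaction of smoke and Iraqi sand was -0.27 ± 0.10 (adjusted p = 0.533). Without rat 302 these were -0.07 and -0.18.

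Cdk6, the other partner kinase, was read by a dim probe set, dimmer than all but 9.45% of genes. It ran from 5.12 to 5.38 over the 12 rats with smoke, against 4.95 to 5.40 over the 12 rats without smoke. The averaged smoke difference was 0.06 ± 0.05 (95% interval -0.04 to 0.15, adjusted p = 0.474).

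Cdkn1a, the CIP/KIP inhibitor induced by p53, varied more between rats of 1 group than between groups. Its levels were 9.01, 9.27, 9.79 and 8.54 with smoke and silica, with rat 604 the highest. They were 9.23, 10.07, 8.99 and 9.16 with Iraqi sand, with rat 302 the highest, against 9.43, 9.32, 9.46 and 9.39 in air. The residual SD of 0.34 exceeded that of 90.8% of genes.

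The averaged smoke difference of Cdkn1a was -0.08 ± 0.13 (95% interval -0.36 to 0.19, adjusted p = 0.738), and -0.00365 without rat 302. All 4 rats with smoke and Iraqi sand, at 8.89 to 9.23, lay below the air rats, at 9.32 to 9.46, but the difference of -0.31 ± 0.23 had an adjusted p of 0.701. The silica rats without smoke, at 8.87 to 9.22, also lay below all air rats. Its dimmer probe set gave no adjusted p under 0.768.

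Cdkn1b, the inhibitor that accumulates in resting cells, had its highest means with silica (11.38 ± 0.15) and with smoke and Iraqi sand (11.38 ± 0.15) and its lowest with smoke (11.12 ± 0.11; SD, n = 4 each). With Iraqi sand, rats with smoke lay 0.25 ± 0.12 above their counterparts (adjusted p = 0.231), and without particles smoke rats lay 0.12 ± 0.12 below air (adjusted p = 0.870). The interaction of 0.36 ± 0.16 had an adjusted p of 0.559. Without rat 302, the lowest at 10.82, the difference with Iraqi sand was 0.14 and the interaction 0.26. The other probe set gave 0.03 ± 0.11 for smoke with Iraqi sand and -0.02 ± 0.16 for the interaction, so it did not show either.

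**Figure D3:**
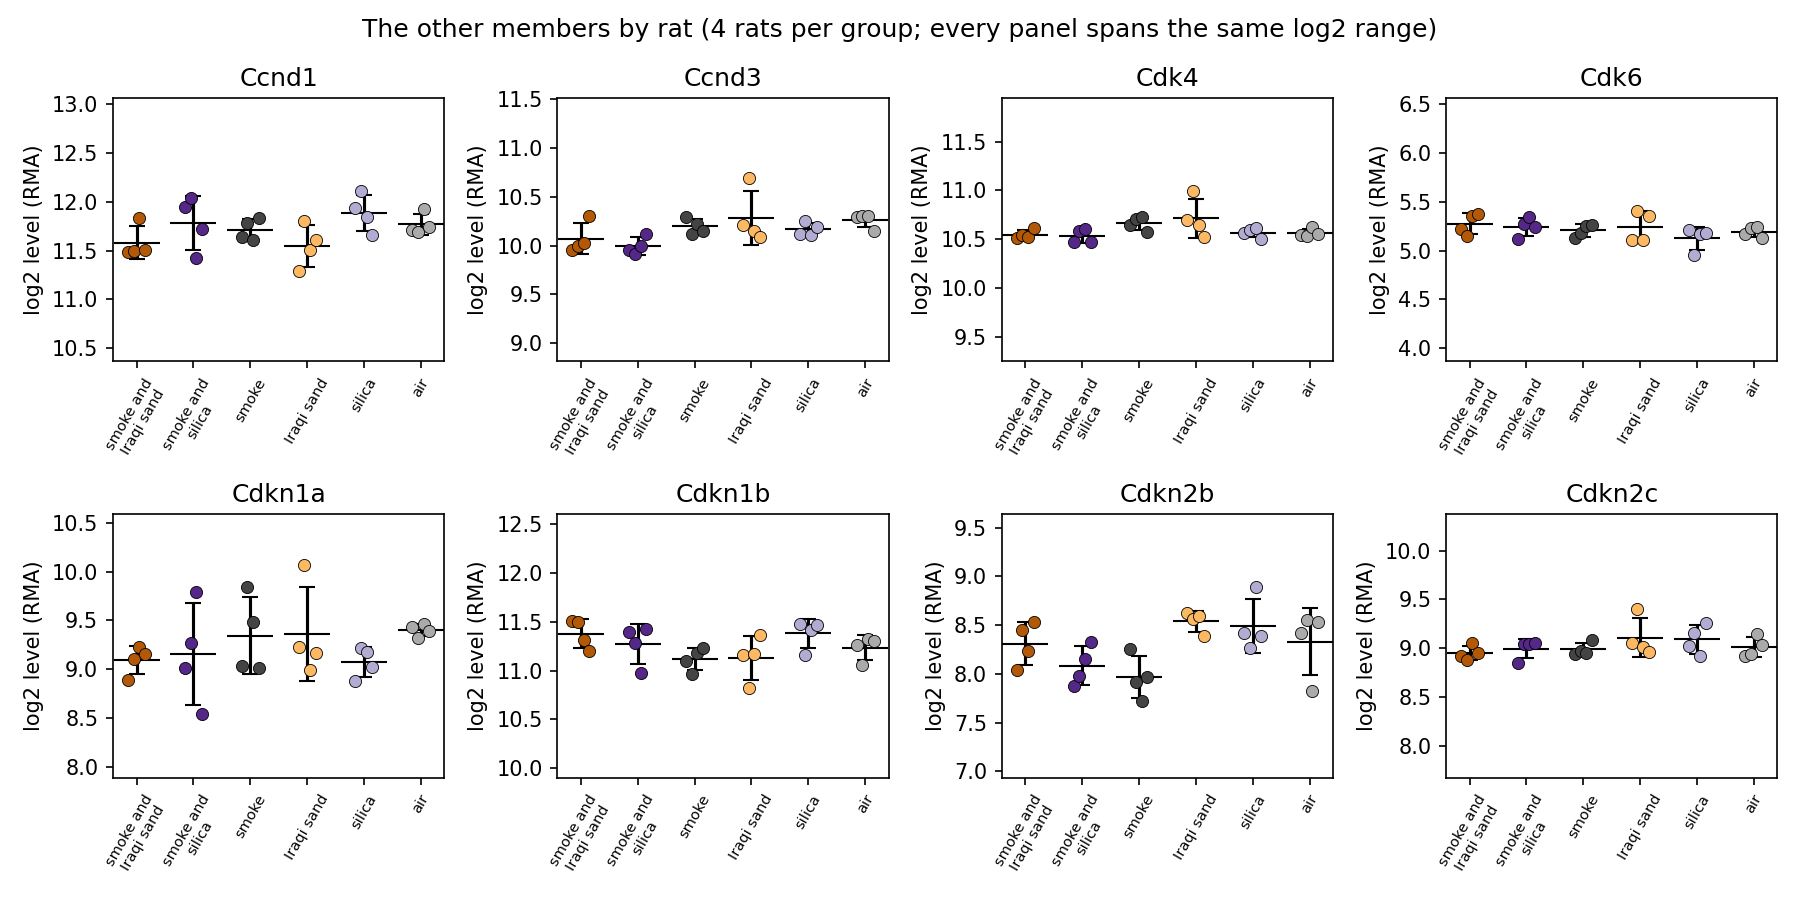
Levels (log2) of the 8 genes other than Ccnd2 in each rat; points are rats, the long bar is the group mean, the whiskers are 1 SD (n = 4), and all panels span the same log2 range. Cdkn2b has lower means in the smoke groups than in the matching groups without smoke. The spread of Cdkn1a within groups is the widest when pooled over the groups, but not in air, in silica or in smoke and Iraqi sand.

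Cdkn2b, the INK4 inhibitor known as a TGF-beta target, had a lower mean with smoke in all 3 particle conditions. Its levels were 8.03, 8.45, 8.23 and 8.53 with smoke and Iraqi sand, against 8.62, 8.57, 8.59 and 8.38 with Iraqi sand. They were 7.87, 7.98, 8.15 and 8.33 with smoke and silica, against 8.42, 8.26, 8.89 and 8.38 with silica. They were 8.25, 7.92, 7.72 and 7.97 with smoke, against 8.42, 8.55, 7.83 and 8.53 in air. The groups overlapped in each pair, in air through rat 104 at 7.83, and 11 of the 12 rats with smoke lay below the median of the 12 without.

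The smoke difference of Cdkn2b averaged over the 3 particle conditions was -0.33 ± 0.09 (SE; 95% interval -0.53 to -0.14), or 1.26-fold lower, with an adjusted p of 0.0350 in limma. It was the 1 call among the 8 genes tested, where 6.39% of all genes passed, 382 higher and 526 lower. Taken singly, the difference was -0.23 ± 0.16 with Iraqi sand (adjusted p = 0.402, and -0.14 without rat 402), -0.41 ± 0.16 with silica (adjusted p = 0.473) and -0.36 ± 0.16 without particles (adjusted p = 0.433). The interactions were 0.13 ± 0.23 with Iraqi sand and -0.04 ± 0.23 with silica (adjusted p = 0.840 and 1.00), so the smoke differences were not shown to differ from each other.

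The call sat near the threshold. Leaving out any 1 of rats 102, 103, 105, 203, 204, 301, 402, 405, 503, 602 and 603 gave an adjusted p of 0.0514 to 0.0639, with differences of -0.29 to -0.33. Without rats 302, 104 and 604 the difference was -0.39 and the adjusted p 0.00997. The RNA integrity number, known for 19 rats, had a median of 9.2 in rats with smoke and 9.2 in rats without, and the difference with it as a covariate was -0.32 (adjusted p = 0.0331). Macrophage markers moved the other way: 7 of 9 rose, with a list mean of 10.59 to 11.73 over the 12 rats with smoke, against 9.89 to 10.84 over the 12 rats without smoke. Markers that fell in the same contrast were 7 of 9 of T cells, 2 of 8 of endothelium and 2 of 5 of alveolar type 1 cells, and the list mean of the T cell markers averaged 7.62 with smoke, against 8.16 without. Further markers rose: 3 of 9 airway secretory, with list means averaging 9.73 with smoke, against 8.84 without, 2 of 8 neutrophil, with 9.09, against 8.31, 1 of 5 ciliated and 1 of 4 erythroid. Over all the cell type lists 25 of 84 markers passed in this contrast (29.8%), against 6.39% of all genes. The part of these markers in the Cdkn2b difference was not tested.

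Cdkn2c, the other INK4 inhibitor, ran from 8.85 to 9.08 over the 12 rats with smoke (median 8.96), against 8.92 to 9.40 over the 12 rats without smoke (median 9.03), rat 302 again being the highest. The averaged smoke difference was -0.09 ± 0.05 (95% interval -0.20 to 0.02, adjusted p = 0.283), and -0.06 without rat 302. Its second probe set gave no adjusted p under 0.580.

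**Figure D4:**
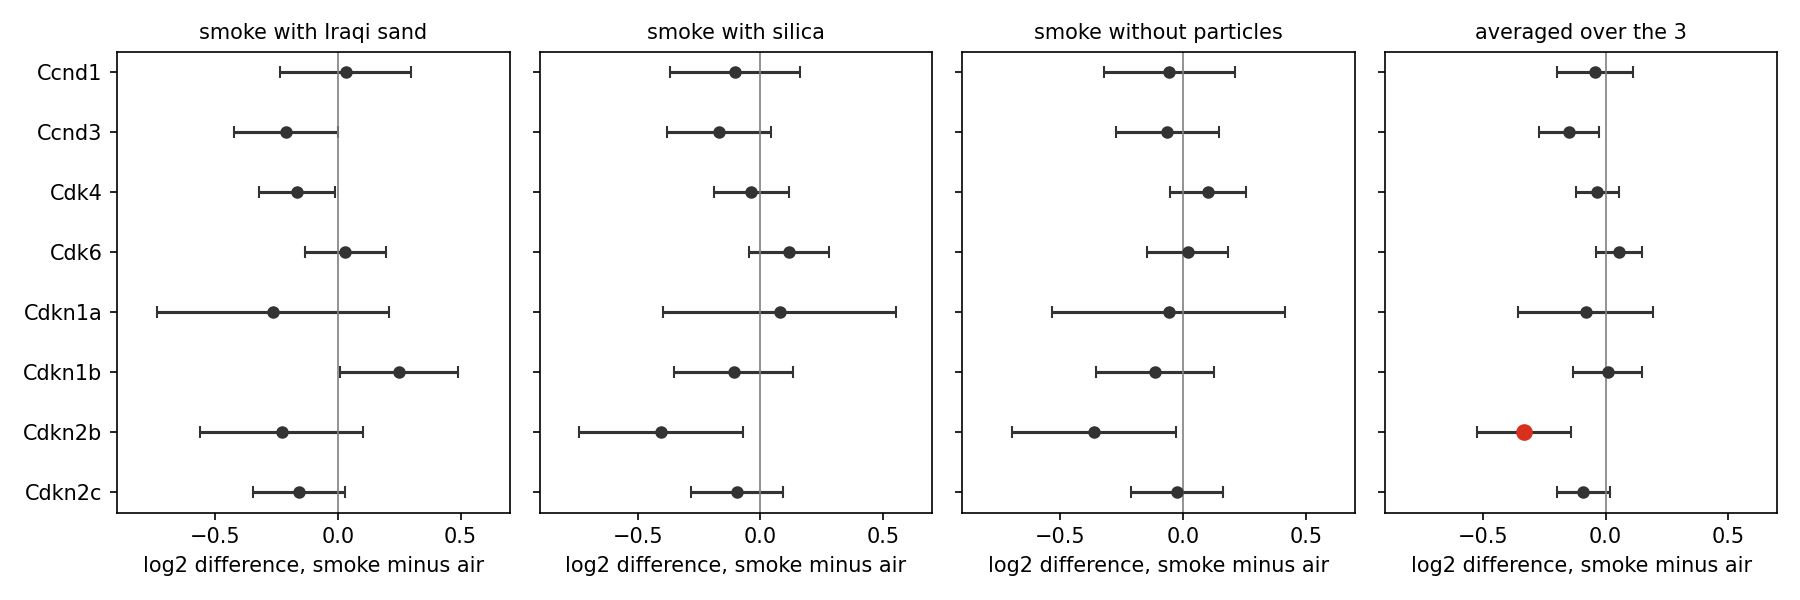
Differences (log2) between rats with and without smoke (air nose-only) of the 8 genes tested for smoke, with Iraqi sand, with silica, without particles and averaged over the 3; points are estimates and whiskers 95% intervals. The averaged Cdkn2b difference, in red, is the one that passed, at -0.33.

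Of the 8 genes, 0 passed for smoke with Iraqi sand in limma (3 with an unadjusted p under 0.05), where 1.29% of all genes were called. Those 3 were Ccnd3, Cdk4 and Cdkn1b, and without rat 302 their adjusted p was 0.603 to 0.705. For smoke with silica 0 passed (1 unadjusted), where 0.00703% of genes were called, and for smoke without particles 0 passed (1 unadjusted), where 0.893% were called. For smoke and Iraqi sand against air 0 passed and 0 had an unadjusted p under 0.05, against 0.978% of all genes called. For smoke and silica against air 0 passed (1 unadjusted), against 3.77% called. An unadjusted p under 0.05 was held by 20.5% of all genes for smoke with Iraqi sand, 8.17% with silica and 9.95% without particles. It was held by 10.9% for smoke and Iraqi sand against air and by 18.5% for smoke and silica against air. The interaction of smoke with Iraqi sand called 0.00703% of all genes and that with silica 0%. None of the 8 was called in limma, with 2 and 0 at an unadjusted p under 0.05. Of all genes, 8.84% and 2.24% (318 genes for silica) had such an unadjusted p. Among the smoke groups, 0 of the 9 passed for Iraqi sand (3 unadjusted), for silica (1 unadjusted) or between the particles (0 unadjusted). There 0.0141%, 0.0141% and 0% of all genes were called, and 3.83%, 8.29% and 6.96% had an unadjusted p under 0.05. The median difference of the 8 was -0.06 for averaged smoke, against -0.02 over all genes.

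In 7 lists of other pathway genes, averaged smoke called 4 of 96 measured entries (4.17%), near the 6.39% of all genes, and 32.3% had an unadjusted p under 0.05, against 24.5% of all genes. Of 24 other G1/S genes measured, the averaged smoke contrast called 1, Myc, a growth-promoting transcription factor, which rose by 0.29 ± 0.07 (adjusted p = 0.0163). It called 0 of 12 S phase genes (0 unadjusted) and 0 of 15 mitotic genes (7 unadjusted), for which the median difference was 0.28, against -0.02 over all genes, and 0.18 without rats 302, 104 and 604. Of 12 p53 targets it called 2, both lower: Sesn1, a stress-induced sestrin, at -0.23 ± 0.05 (adjusted p = 0.0143), and Bbc3, a pro-apoptotic BCL2 family member, at -0.16 ± 0.05 (adjusted p = 0.0476). Cdkn1a, also a p53 target, did not pass.

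Of 9 TGF-beta targets measured, 0 passed in limma in the averaged smoke contrast (2 unadjusted), and the nearest was Ccn2, a matricellular growth factor, at 0.33 ± 0.11 (adjusted p = 0.0677). Of 11 FOXO targets 1 passed, Klf15, a metabolic transcription factor, at -0.47 ± 0.09 (adjusted p = 0.00441). Of 13 growth factor response genes 0 passed (5 unadjusted), and the nearest, Egr2, an immediate early gene, was at 0.30 ± 0.09 (adjusted p = 0.0576). Without rats 302, 104 and 604 the averaged contrast called 7 entries, where 8.31% of all genes passed: the same 4, Myc, Sesn1, Bbc3 and Klf15, with Ddit4, Egr2 and Etv4 added.

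For smoke and silica against air 4 of the 96 entries passed in limma (4.17%), near the 3.77% of all genes. Myc rose by 0.58 ± 0.12 (adjusted p = 0.00861), Aurka, a mitotic kinase, by 0.50 ± 0.13 (adjusted p = 0.0389) and Egr2 by 0.99 ± 0.16 (adjusted p = 0.00109). Klf15 fell by 0.79 ± 0.16 (adjusted p = 0.00861). Without rats 302, 104 and 604 the Aurka difference was 0.34 and did not pass (adjusted p = 0.150), while Myc, Egr2 and Klf15 passed (adjusted p = 0.00594, 0.00192 and 0.0106), and Rbl1, Bbc3, Smad6 and Ddit4 were added, 7 entries in all, where 4.12% of all genes passed. For smoke and Iraqi sand against air 1 of the 96 measured entries of these lists (Junb stands in 2 of them) passed (1.04%), near the 0.978% of all genes. It was Egr2, at 0.76 ± 0.16 (adjusted p = 0.0221 in limma). Without the same 3 rats 4 passed, E2f2, Myc, Ddit4 and Egr2, where 2.64% of all genes did. For smoke and silica against smoke, in which Ccnd2 had the lowest adjusted p of the 9 genes, 0 of the 96 passed in limma (11 unadjusted), and likewise 0 for smoke and Iraqi sand against smoke (3 unadjusted). In each of these contrasts 0.0141% of all genes were called. The unadjusted shares were 11.5% and 3.13%, against 8.29% and 3.83% of all genes.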

How the data were processed

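The authors deposited 1 value per probe set and array for 24 Affymetrix Rat230_2 arrays as log2 values, made with RMA per the submitters' processing notes; no version, slide or scan date is given in the sources used here. RMA corrects background and normalizes by quantiles over all arrays, so a difference is relative to the other genes; array medians ran from 7.26 to 7.32. Of 31099 probe sets, 57 controls, 436 with several symbols and 9780 with none were left out, and the brightest of a gene's probe sets stood for it, giving 14217 genes. One fit of 6 group means over all 24 arrays was made with limma 3.58.1 in R 4.3.3 (18 residual degrees of freedom), with a two-sided moderated test, Benjamini-Hochberg adjustment over all genes in each comparison and a threshold of 0.05; the script was tested on simulated data. The number of arrays limits the precision. Members and lists were chosen with earlier results of these data known. Named are all members, at most 4 called genes of each list (the nearest one where none passed), and the 5 genes most correlated with Ccnd2.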

Additional observations from a re-analysis of the deposited data

Results flagged for a closer look

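In 5 of the 54 gene and group combinations of 4 rats, 1 rat lay far from its mates by Dixon's test, which chance alone does in about 1 in 20. Ccnd1 was 11.84 in rat 405 with smoke and Iraqi sand, against 11.48 to 11.51 in its mates. Cdkn2c was 8.85 in rat 602 with smoke and silica, against 9.04 to 9.05 in its mates. Ccnd2 was 10.65 in rat 502 with silica, against 11.00 to 11.01 in its mates. Cdk6 was 4.95 in the same rat, against 5.17 to 5.21 in its mates. Ccnd3 was 10.15 in rat 105 in air, against 10.29 to 10.31 in its mates.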

How the results depend on the processing

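Of 91 member differences tested, 83 kept their side of the threshold under all 9 other settings and with each of 24 rats left out in turn, and no called difference turned round. The averaged smoke difference of Cdkn2b was the only call in the main fit, so those that kept their side were differences that stayed uncalled. Of the differences never called, 34 changed sign. With array quality weights the members called numbered 2 for averaged smoke (Ccnd3 and Cdkn2b), 1 for smoke without particles (Cdkn2b), 2 for smoke and silica against smoke (Ccnd2 and Ccnd3), 1 for smoke and Iraqi sand against air (Ccnd3) and 2 for smoke and silica against air (Ccnd3 and Cdkn2b). These weights raised the genes called in those contrasts to 2651, 1119, 342, 1172 and 2477, against 908, 127, 2, 139 and 536, in the same order. Rat 302 had a weight of 0.0446, against 0.414 to 2.42 in the other rats, so this setting came near to leaving it out. With rat 302 alone left out, limma gave Ccnd2 an adjusted p of 0.0546 for smoke and silica against smoke, which did not pass. With only the arrays compared, 1 member (Ccnd2) was called for smoke and silica against smoke. With only genes at or above the median level, 0 were called for averaged smoke, since Cdkn2b left the fit. Leaving out 1 rat gave 0 to 1 members called for averaged smoke and 0 to 1 for smoke and silica against air. Leaving out rats 302, 104 and 604 together was added after seeing the data. So was a fit of the 19 arrays with a known integrity number, without that number as a covariate. Another background correction and a slide block could not be run from normalized values without slide labels. No paired analysis was possible because the rat numbers differ between all groups.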
